A study of Rattus norvegicus with 6 samples.

Results

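The prolactin transcript (Prl) was followed in GH3 cells, a rat pituitary tumour line, with and without thyrotropin-releasing hormone (TRH). Prl is 1 gene, taken by its Ensembl identifier ENSRNOG00000017374, of the 18413 genes in the deposited count table. The series compared 3 control libraries with 3 libraries of cells given 100 nM TRH. All 6 libraries came from GH3 cells labelled wild type and grown in F10 medium with horse serum, fetal bovine serum and antibiotics. The sources used here state neither how long TRH was applied nor the control's vehicle. The series title ties TRH and prolactin to miR-126a-5p, and microRNAs are not analysed here. The labels do not tell whether replicates were grown separately, so the p-values below rest on a spread between libraries that may be technical. The libraries held 43504159 to 52134239 counts each, and control replicate 1 and TRH replicate 3 stood farthest apart in a trend of expression with gene length.

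Prolactin is a peptide hormone of the anterior pituitary, made by lactotrophs and best known for driving milk production. Hypothalamic TRH acts on lactotrophs and thyrotrophs through a Gq-coupled receptor, raising intracellular calcium and activating protein kinase C and ERK, and is a known stimulus of prolactin release and of Prl transcription. Dopamine, acting through the D2 receptor, restrains the same cells. Transcription of Prl in lactotrophs depends on the pituitary factor POU1F1 (Pit-1), which binds the proximal promoter. GH3 cells are known for making prolactin together with growth hormone.

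A stretch upstream of a RefSeq start of Prl is shown. Where this start lies relative to the start of the transcript in pituitary cells was not checked, so the stretch may not be the proximal promoter. The files used here hold no measure of binding or promoter activity. The sequence is from RefSeq, build GRCr8, chr17:38298235-38298467 on the minus strand, matched by the symbol Prl. It runs 5′ to 3′ from position -250 to -18 before the RefSeq start used for numbering. It stops at -18 because the RefSeq gene entry reaches upstream of that start. Capitals mark the match to the POU1F1 core letters ATGNATA.
Prl promoter: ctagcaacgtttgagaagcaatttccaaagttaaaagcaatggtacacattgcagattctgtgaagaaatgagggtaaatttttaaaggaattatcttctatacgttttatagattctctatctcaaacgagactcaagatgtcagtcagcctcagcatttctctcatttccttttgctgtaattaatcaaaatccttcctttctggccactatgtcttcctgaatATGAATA
The stretch held 1 match to ATGNATA, searched on both strands, at positions -24 to -18 on the strand of the gene. Of 33469 RefSeq promoters, each searched over the same 233 bases from position -250 to -18, 8.35% held at least 1 such match. The ETS core GGAA matched 5 times over both strands, and 92.0% of promoters held at least 1 match and 15.5% at least as many. The ATGNATA match did not overlap any GGAA match. The AP-1 letters TGANTCA and the CRE letters TGACGTCA had 0 matches in this window, and 5.94% and 1.40% of promoters held one. Bases of Prl outside this window were not searched for any of these motifs. The Prl stretch was 65.2% A or T, against a median of 48.9% over all promoters.

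Prl was a scarce transcript in every library. In controls, replicate 1 held 17 Prl counts, replicate 2 held 21 and replicate 3 held 21. With TRH, replicate 1 held 41, replicate 2 held 43 and replicate 3 held 36. The lowest TRH library was thus 15 counts above the highest control, and the groups did not overlap in these unscaled counts. With counts scaled for library size, 956 of the 14050 genes tested (6.80%) had all 3 TRH libraries above all 3 controls. The group means of Prl were 19.7 ± 2.31 counts in controls and 40.0 ± 3.61 counts with TRH (SD, 3 libraries each). These spreads were below those that counting alone would give on average, a Poisson SD of 4.43 counts in controls and 6.32 with TRH. The exact 95% Poisson intervals, which cover counting error only, ran from 9.90 to 27.2 counts in control replicate 1 and from 31.1 to 57.9 counts in TRH replicate 2, the libraries with the lowest and the highest count. The upper bound of control replicate 3, 32.1 counts, exceeded the lower bound of TRH replicate 3, 25.2 counts, so single libraries were not all resolved from each other at this depth.

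**Figure D1:**
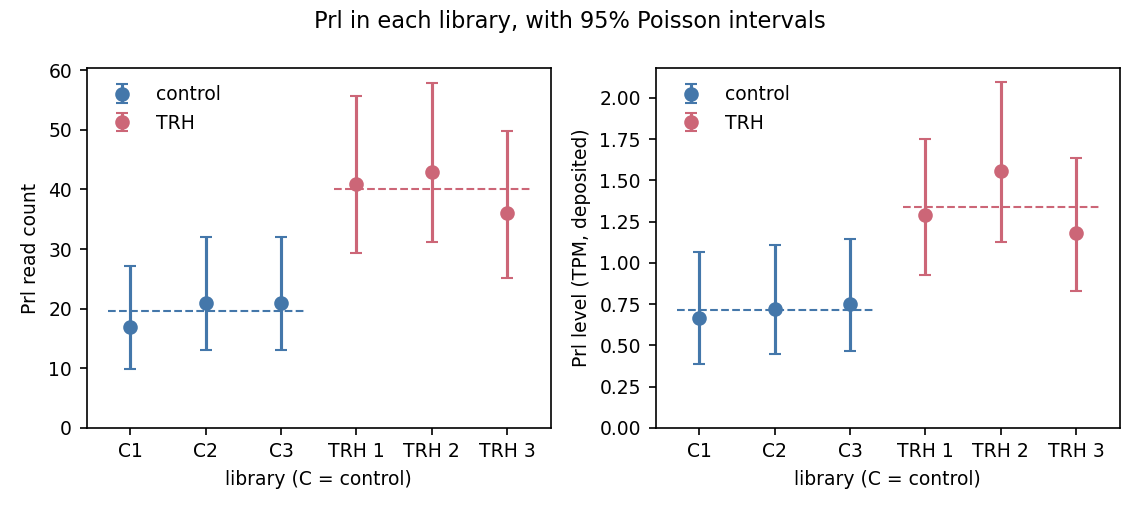
Prl read count (left) and deposited TPM (right) in each of the 6 libraries, with exact 95% Poisson intervals as bars and group means as dashed lines. The 3 TRH libraries sit at 36 to 43 counts, above the controls at 17 to 21, and several intervals overlap between the groups.

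On a length-corrected scale the levels were similarly low. The deposited TPM (a read level divided by gene length, listed as 996 bases for Prl, and scaled to the same total in every library) was 0.665 in control replicate 1, 0.723 in replicate 2 and 0.749 in replicate 3. With TRH it was 1.29 in replicate 1, 1.55 in replicate 2 and 1.18 in replicate 3. All TRH libraries were therefore above 1 TPM and all controls below it, at 0.712 ± 0.0434 TPM in controls and 1.34 ± 0.192 TPM with TRH (SD, 3 libraries each). The deposited FPKM was under 1 in all 6 libraries, at 0.437 ± 0.0393 in controls and 0.846 ± 0.0977 with TRH (SD, 3 libraries each). One Prl count stood among 2559068 counts in control replicate 1 and among 1047142 in TRH replicate 2, the extremes of the 6 libraries.

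This low level is unlike what is known of GH3 cells, a line known for making prolactin. With 1 row of uncertain identity it does not test the label of the cells. Ranked by TPM among the 18413 genes of each library, Prl stood at 13531, 13329 and 13458 in control replicates 1 to 3. With TRH it stood at 12579, 12325 and 12428 in replicates 1 to 3, nearer the top but still in the lower part of the list. A share of 73.0 ± 0.556% of genes lay above Prl in controls and 67.6 ± 0.694% with TRH (SD, 3 libraries each). The median gene had 7.47 ± 0.577 TPM in controls and 6.84 ± 0.717 TPM with TRH (SD, 3 libraries each), so Prl was below the median gene in both groups. The most abundant gene of a library exceeded Prl in TPM by 33229-fold to 38465-fold in controls and by 14055-fold to 18956-fold with TRH. These RNA counts do not measure prolactin protein or its secretion, and in bulk RNA fewer expressing cells and less RNA per cell cannot be told apart.

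The identity of the row could not be checked beyond its identifier. Both deposited tables carry Ensembl identifiers without symbols, and 0 identifiers were matched to a symbol through the RefSeq table, so Prl was taken as the rule gives it. RefSeq lists 27 other genes named as members of the Prl family on the chromosome that holds Prl. No source used here states how reads shared between genes were assigned, and the part of either point in the low count was not tested. The other pituitary hormones and cell markers, the TRH receptor and its signalling genes, the transcription factors of the Prl promoter, the dopamine receptor, the immediate early genes and the granule proteins were chosen by symbol and are not analysed here for the same reason.

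**Figure D2:**
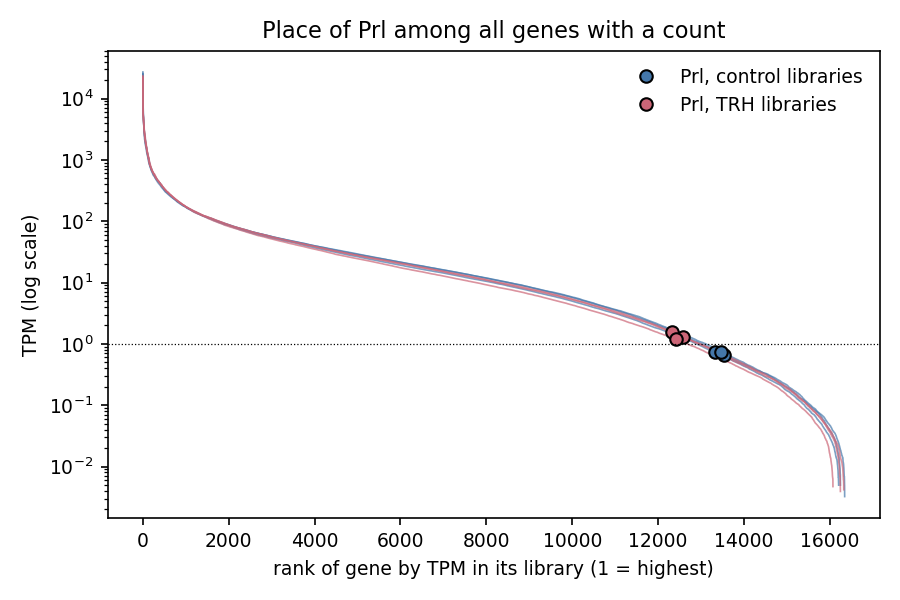
TPM on a log scale against the rank of each gene with a count, 1 line per library (blue for control, red for TRH), with Prl marked in each library and a dotted line at 1 TPM. Prl lies at ranks 13329 to 13531 in controls and 12325 to 12579 with TRH, on either side of 1 TPM.

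Prl had higher counts in cells given TRH, by about 2-fold, and the difference did not pass the threshold once all genes were considered. The fitted log2 fold change, TRH over control, was 0.97 (SE 0.31, 95% interval 0.26 to 1.68), which is a fold of 1.96 with an interval of 1.20 to 3.20. The adjusted p from edgeR's quasi-likelihood test was 0.439, with Benjamini-Hochberg adjustment over the 14050 genes tested. The interval is for this gene alone and is not adjusted for the number of genes. In all 9 pairs of a TRH and a control library Prl was higher with TRH, with TPM ratios from 1.58 to 2.34. A two-sided exact permutation test of log2 TPM gave p = 0.1, which is the smallest value that 3 libraries against 3 allow. Summed over libraries, 120 counts of 142938468 with TRH stood against 59 of 135209423 in controls, a ratio of 1.92 whose exact 95% interval of 1.40 to 2.67 covers counting error only and compares these libraries, not the conditions.

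Prl shared this outcome with every gene tested in that fit. edgeR called 0 of 14050 genes, which is 0%, and 1263 genes (8.99%) had an unadjusted p under 0.05. With single libraries left out that number ran from 769 of 14244 (without control replicate 1) to 1786 of 14225 (without control replicate 2). The Wald test of DESeq2 called 106 of the 12698 genes it adjusted (0.835%), 13 higher and 93 lower with TRH. Prl was among the 287 genes (2.04%) with an unadjusted edgeR p under 0.05 and a higher value with TRH, and its p ranked 437 of 14050. In 956 genes (6.80%) all 3 TRH libraries exceeded all 3 controls in CPM (counts scaled for library size with edgeR's TMM factors), as they did for Prl. Genes were also put in 5 groups of equal size by abundance. Among the 2810 genes of abundance group 1, the lowest, which holds Prl, that share was 4.41%, and 1.39% had an unadjusted p under 0.05 with a higher value in TRH libraries.

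The size of the Prl difference was among the largest positive fold changes, in the range of abundance where fitted folds spread most. In all, 53 of 14050 genes (0.377%), Prl included, had a log2 fold change at or above that of Prl. All 53 belonged to abundance group 1 (0.198 to 3.21 CPM), of which they made 1.89%. In that group absolute log2 fold changes had a median of 0.29 and their standard errors a median of 0.37, against 0.16 for both over all genes tested. The standard error of Prl, 0.31, was thus below the median of abundance group 1, whose genes span 0.198 to 3.21 CPM.

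**Figure D3:**
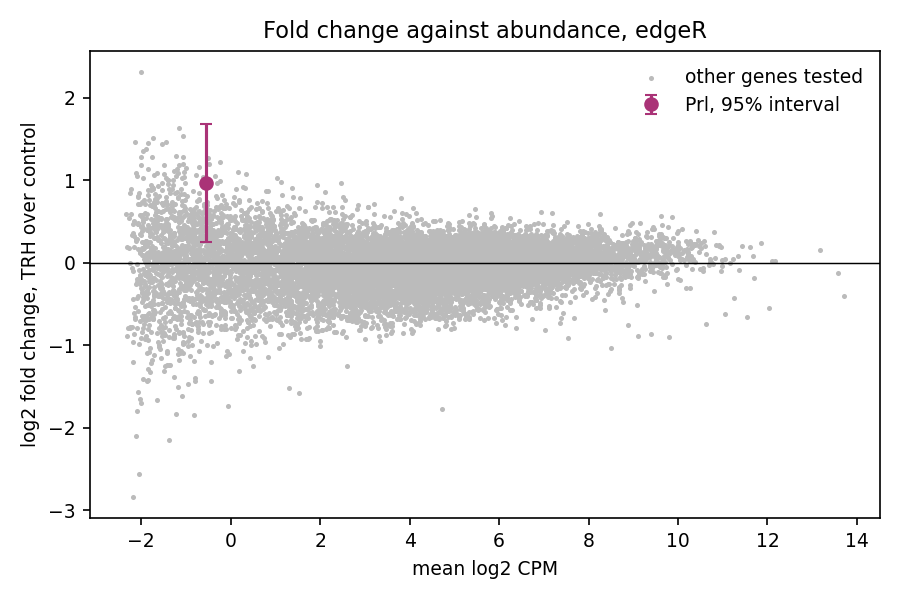
Fitted log2 fold change (TRH over control) against mean log2 CPM for the 14050 genes tested, with Prl and its 95% interval in purple. Prl has a log2 fold change of 0.97 at a mean log2 CPM of -0.55, at the left, where the points fan out.

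Whether Prl enters a test at all depends on the filter. With at least 1 CPM required in 3 libraries it was not tested, and DESeq2 with its default filtering gave it no adjusted p, with a log2 fold change of 0.99 (SE 0.45). On log2(TPM + 1), limma's difference was 0.45 (SE 0.10, adjusted p = 0.440), since a pseudocount near the level itself shrinks the fold. Without TRH replicate 2, the library with the highest Prl level, edgeR's interval reached from -0.03 to 1.80.

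**Figure D4:**
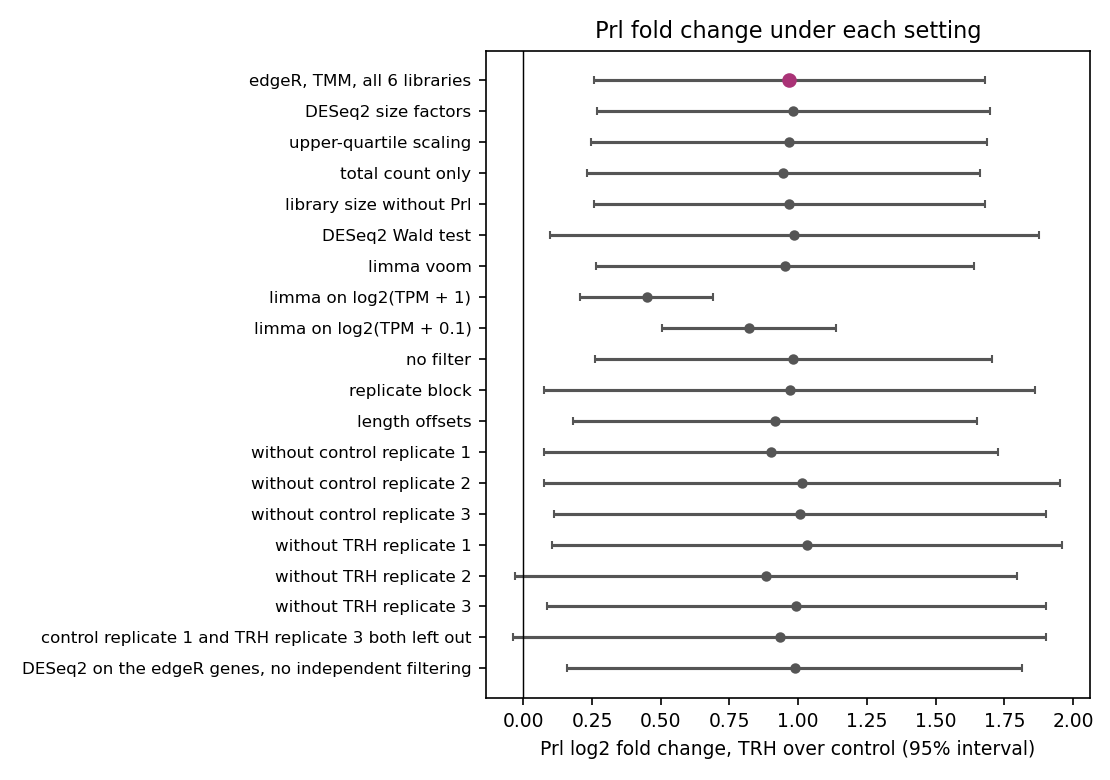
Prl log2 fold change, TRH over control, with its 95% interval (bars) under the edgeR fit with all libraries (purple, top) and 19 alternatives. All values lie above 0, from 0.45 to 1.03, and the interval lies wholly above 0 in 17 of the 19 alternatives.

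Gene length differed in its trend between libraries, and Prl, at 996 bases, lay in length group 1, the shortest of 5 groups of equal size (49 to 1176 bases). On the log2 CPM scale, relative to the mean of the 6 libraries, the median gene of that group deviated by -0.19 in control replicate 1, 0.09 in control replicate 2 and -0.03 in control replicate 3. With TRH it deviated by -0.01 in replicate 1, 0.02 in replicate 2 and 0.22 in replicate 3. These medians overlapped between the groups, and the lowest and highest were those of control replicate 1 and TRH replicate 3. The median log2 fold change of these short genes was 0.12, against 0.97 for Prl. Prl minus that median was -0.39, -0.46 and -0.38 in control replicates 1 to 3, and 0.37, 0.59 and 0.18 in TRH replicates 1 to 3. On this scale the groups did not overlap either, and the smallest TRH value was that of replicate 3, the library with the highest short genes. How many other short genes stay apart after this subtraction was not counted. Without it, 956 of the 14050 genes tested (6.80%) had all 3 TRH libraries above all 3 controls in CPM. What part the length trend has in the Prl difference was not tested. With offsets for gene length the log2 fold change of Prl was 0.92 (SE 0.33), and with control replicate 1 and TRH replicate 3 dropped together it was 0.93 (95% interval -0.04 to 1.90).

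Among 5784 genes with a mean log2 CPM of at least 5, the pattern most like that of Prl over the 6 libraries belonged to ENSRNOG00000016257 (1605 bases), with a Pearson's r of 0.995 on log2 CPM. Its level was 41.2, 44.5 and 42.6 CPM in control replicates 1 to 3 and 56.4, 63.7 and 56.4 CPM in TRH replicates 1 to 3. Its groups did not overlap, and it was highest, as Prl was, in TRH replicate 2. Its log2 fold change was 0.46 (SE 0.10, edgeR adjusted p = 0.395), a smaller and more precisely measured difference than that of Prl. The next was ENSRNOG00000056457 (2871 bases, r of 0.994), at 31.8, 32.9 and 32.3 CPM in control replicates 1 to 3 and 41.2, 45.3 and 41.1 CPM in TRH replicates 1 to 3. Its log2 fold change was 0.40 (SE 0.09, edgeR adjusted p = 0.395). With 6 libraries in 2 groups such a likeness is a description, and the separation of the groups in these genes follows from their choice: 92 of the 5784 genes had an r of at least 0.9 with Prl and 82 an r of -0.9 or lower.

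**Figure D5:**
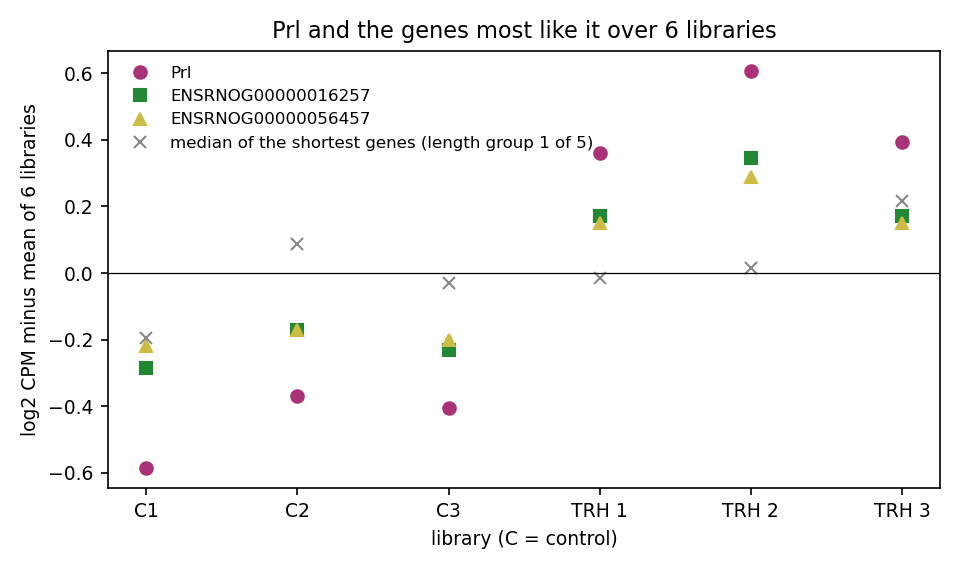
Log2 CPM minus the mean of the 6 libraries for Prl, the 2 genes with the most similar pattern and the median of length group 1, in each library. Prl and both genes are below 0 in all controls and above 0 in all TRH libraries, with the widest separation for Prl.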

How the data were processed

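RNA-seq libraries of GH3 cells were made from total RNA and sequenced on an Illumina XTen instrument, per the labels' protocols. HISAT2 and bedtools are named in the submitters' processing notes, with no version or role. No source used here states the genome build, annotation, strand setting or counting rule. One deposited table holds raw counts of reads for each Ensembl gene, and a second repeats them (equal in 100% of cells) with gene length, FPKM and TPM. The deposited FPKM and TPM were recomputed from counts, length and library totals to rounding error. The deposited length in bases is the authors' other value used, and how it was derived is not given.

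Counts were tested with edgeR 4.0.16 (R 4.3.3): quasi-likelihood F-test, TMM scaling, filterByExpr, 3 control against 3 TRH libraries, no replicate block, Benjamini-Hochberg adjustment over 14050 genes, threshold 0.05. Intervals used the t distribution of the fit. Alternatives used DESeq2 1.42.0 and limma 3.58.1, other scalings and filters, length offsets (loess, span 0.5), a block and left-out libraries. Fits were tested on simulated data. Libraries of a group differed beyond sampling noise (13.7 to 110.0 chi-square per degree of freedom). Prl was named by rule, as were the 2 genes with the highest r with it at a mean log2 CPM of at least 5. Prl, the lists and the tests were chosen with earlier results of these data known.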

Additional observations from a re-analysis of the deposited data

How the results depend on the processing

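The log2 fold change of Prl was above 0 in all 19 alternatives that gave a value, from 0.45 to 1.03, and passed adjustment in 0 of them (adjusted p 0.364 to 0.897, with none given by DESeq2's default). Leaving out single libraries gave 0.88 to 1.03. The adjusted p of 0.364 came from DESeq2 on the edgeR genes without independent filtering, added after seeing the data. Requiring at least 1 CPM in 3 libraries gave no value for Prl. The number of genes called, 0 in edgeR, became 106 with DESeq2's Wald test and 126 with DESeq2 on the edgeR genes. It was 0 to 1 with single libraries left out, the 1 without TRH replicate 3, and 1 with control replicate 1 and TRH replicate 3 both left out. The cause of these differences was not tested. The rank of Prl by mean TPM, 12918 of 18413, became 12689 among the edgeR genes, where fewer genes are ranked, and 12803 to 13071 with single libraries left out. With about 20 to 40 counts per library, counting error limits what Prl can show.

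In the fit with a replicate block, the log2 fold change of Prl was 0.97 (SE 0.39, edgeR adjusted p = 0.561) and 0 genes were called. For libraries sharing a number, deviations from the group means had an r of 0.29 (replicates 1), -0.26 (replicates 2) and -0.12 (replicates 3). These values depend on each other, since deviations sum to 0 within each group of 3 libraries. They cannot tell whether libraries sharing a number were paired.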
